A study of Bos taurus with 20 samples.

Results

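The miR-34 and miR-449 family was followed in spermatozoa of bulls of high (HF) and low (LF) fertility. Its members were taken by name from the deposited table of bovine mature miRNAs, bta-miR-34a, bta-miR-34b, bta-miR-34c, bta-miR-449a, bta-miR-449b, bta-miR-449c and bta-miR-449d, which gave 7 of 1029 miRNAs. At least 1 read was counted on 6 of them, and 5 passed the filter on low values that left 435 miRNAs for testing. The libraries came from 20 Holstein-Friesian bulls used for artificial insemination, 10 HF and 10 LF, with 1 small RNA library per bull. Frozen-thawed semen of several ejaculates of a bull was pooled and treated with a somatic cell lysis buffer, and RNA was extracted from the pool, which averages the ejaculates of that bull. Neither group received a treatment. HF and LF bulls differed in the fertility score that placed them in their group, and the age of single bulls and the centre that kept them were not used here.

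miRNAs are short RNAs that guide a silencing complex to complementary sites in messenger RNAs, mainly through the seed at their 5′ end. The miR-34 and miR-449 miRNAs are grouped as a family because their seeds are the same or nearly so, and they are known to share many targets, among them cell cycle genes. In mammals miR-34b/c and miR-449 are known from meiotic and postmeiotic male germ cells and from multiciliated epithelia, and mice that lack both clusters have few and poorly motile sperm and defective motile cilia. miR-34a is the member best known as a p53-induced miRNA of somatic tissues.

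The members come from separate genes. In the ARS-UCD2.0 annotation of RefSeq, which was used for names and neighbours only, MIR34B and MIR34C lie next to each other in the span of BTG4 and HOATZ. MIR449C, MIR449B and MIR449A follow one another within CDC20B, beside CCNO and MCIDAS, which are known from the programme of multiciliated cells. MIR34A lies within GPR157 and MIR449D within NAV2, each apart from both clusters. Mature sequences were not analysed here.

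A normalized count is on the CPM scale, a count relative to all miRNA reads of its library, corrected by a TMM factor that the authors computed. The reads behind the values were recovered from the value of 1 read in each library, and ranged from 103204 in HF bull 17 to 3097581 in HF bull 2, with a median of 1092881. LF bull 11 was the shallowest LF library, with 310186 reads. A floor of 3 reads corresponds to a normalized count of 1.19 in the deepest and 27.6 in the shallowest library. PCR copies of a molecule are counted as separate reads, so Wilson and Poisson intervals and floors cover counting error only, while intervals of differences between HF and LF rest on the spread between bulls. Values of all members came out as whole reads in all bulls (tolerance 0.01 of a read). In HF bull 6 some other miRNAs had values below that of 1 read, so its recovered reads, which enter the totals here, are uncertain.

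miR-34c was by far the leading member and one of the most abundant miRNAs of these spermatozoa. Its normalized count ranged from 25079.7 to 58035 in HF bulls, with a median of 37781, and from 21226 to 41913 in LF bulls, with a median of 32676. The mean over all bulls ranked 5 among the miRNAs counted and came to 3.56% ± 0.717 (SD, n = 20) of the miRNA counts of a library. The groups overlapped over most of their range, with HF bull 2 highest and LF bull 11 lowest. The coefficient of variation of miR-34c between bulls was 24.2%, the rank 56 from the low end among the 435 miRNAs tested. Nearly all of these were rarer, and counting error adds more to the variation of rarer miRNAs.

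miR-34b, its cluster mate, was present in every bull at a much lower level. It ranged from 1016 to 3473 in HF bulls, with a median of 2039, and from 995 to 2366 in LF bulls, with a median of 1889.6. It ranked 47 and made up 0.193% ± 0.0559 (SD, n = 20) of the counts. HF bull 2 was again the highest of all bulls and LF bull 11 the lowest. At 265 to 8721 reads per library, miR-34b was well above the floor everywhere.

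miR-449a was the leading member of the miR-449 cluster and the runner-up of the family. It ranged from 5876 to 15329.6 in HF bulls, with a median of 7477, and from 3552 to 10071 in LF bulls, with a median of 7981. The group with the higher mean was thus HF (8601 against 7690.3), while the higher median was in LF. It ranked 18, at 0.813% ± 0.223 (SD, n = 20) of the counts. HF bulls 2 and 15 lay above all LF bulls, LF bulls 1 and 11 lay below all HF bulls, and the others were mixed.

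miR-449b and miR-449c were far rarer. miR-449b ranged from 64.3 to 332 in HF bulls, with a median of 127, and from 46.3 to 256 in LF bulls, with a median of 160.0, and ranked 130. As for miR-449a, its HF median was lower and its HF mean (159 against 150) higher. miR-449c ranged from 25.3 to 91.9 in HF bulls, with a median of 34.7, and from 9.27 to 65.1 in LF bulls, with a median of 29.2, and ranked 217. There were 5 LF bulls below all HF bulls for miR-449c, while the highest value, in HF bull 17, rested on 10 reads in the shallowest library. The coefficients of variation were 47.5% for miR-449b and 50.0% for miR-449c. Counting alone would give 12.9% for miR-449b and 22.3% for miR-449c. Such values combine as squares, so the counting values are not shares of the totals.

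**Figure D1:**
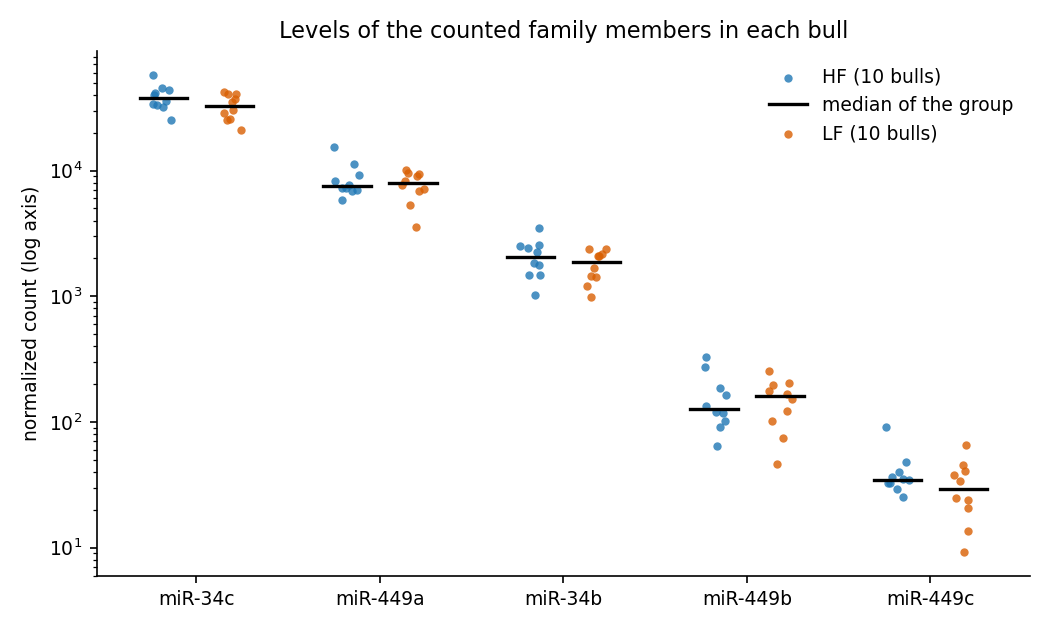
Normalized count (log axis) of the 5 members past the filter in each of 10 HF and 10 LF bulls; each point is 1 bull and the bar is the median of the group. The points of the groups overlap for every member, and miR-34c stands highest at 21226 to 58035.

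The remaining members were at or near 0. miR-34a was counted with 22 reads over all libraries, at most 6 in a library, and had no read in 9 of 20 bulls. The HF libraries held 14 of these reads in 5 bulls and the LF libraries 8 in 6 bulls. In the pooled reads this is 0.942 CPM, with no TMM factor (Poisson 95% interval 0.59 to 1.43), with a mean of 1.1 reads per library, below the floor, so no fold change is given. miR-449d was listed at 0 in every bull, 0 of 23350585 reads, which allows up to 0.128 CPM. Of the family, the miRNAs of both clusters thus had a median of at least 10 reads, while those of the 2 single genes did not. In the shallowest libraries miR-449b fell to 7 reads and miR-449c to 3.

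The order of the members was tested within each bull on log2(normalized count + 1). Levels of different miRNAs also carry differences in ligation and capture between sequences, and normalized counts are not corrected for the length of the miRNA. The mean log2 difference between neighbours in the order was 2.15 ± 0.27 (SD, n = 20) for miR-34c over miR-449a, 2.09 ± 0.28 for miR-449a over miR-34b and 3.72 ± 0.52 for miR-34b over miR-449b. Each of these held in 20 of 20 bulls (exact sign-flip test, two-sided, adjusted p = 2.4e-06, from the smallest p that 20 bulls can give). The order was itself taken from the means of these bulls. The p-values therefore describe how steadily it held between bulls and are not separate support for it. miR-449b exceeded miR-449c by 2.06 ± 0.80 in 19 of 20 bulls (exact sign-flip test, adjusted p = 3.8e-06) and miR-449c exceeded miR-34a in 20 of 20 bulls. No size is given for the last, since miR-34a was below the floor. The bull in which miR-449c was above miR-449b was HF bull 17, with 10 reads of miR-449c and 7 of miR-449b. All neighbours in the order differed beyond their spread between bulls.

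The family took up 4.58% ± 0.947 (SD, n = 20) of the miRNA counts of a library. The share ranged from 3.15% to 6.26% in HF bulls, with a median of 4.95%, and from 2.70% to 5.47% in LF bulls, with a median of 4.55%. The highest share was in HF bull 2, the deepest library, and the lowest in LF bull 11, and no test was made of this summed value. Within the family miR-34c held 77.8% ± 2.89 of the family counts, miR-449a 17.7% ± 2.68, miR-34b 4.15% ± 0.537, miR-449b 0.328% ± 0.116 and miR-449c 0.0785% ± 0.0353 (SD, n = 20 each). The share of miR-34c in the family ran from 70.7% in LF bull 13 to 82.2% in LF bull 11, that of miR-449a from 13.8% to 23.4%, and that of miR-449b from 0.13% to 0.625%.

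**Figure D2:**
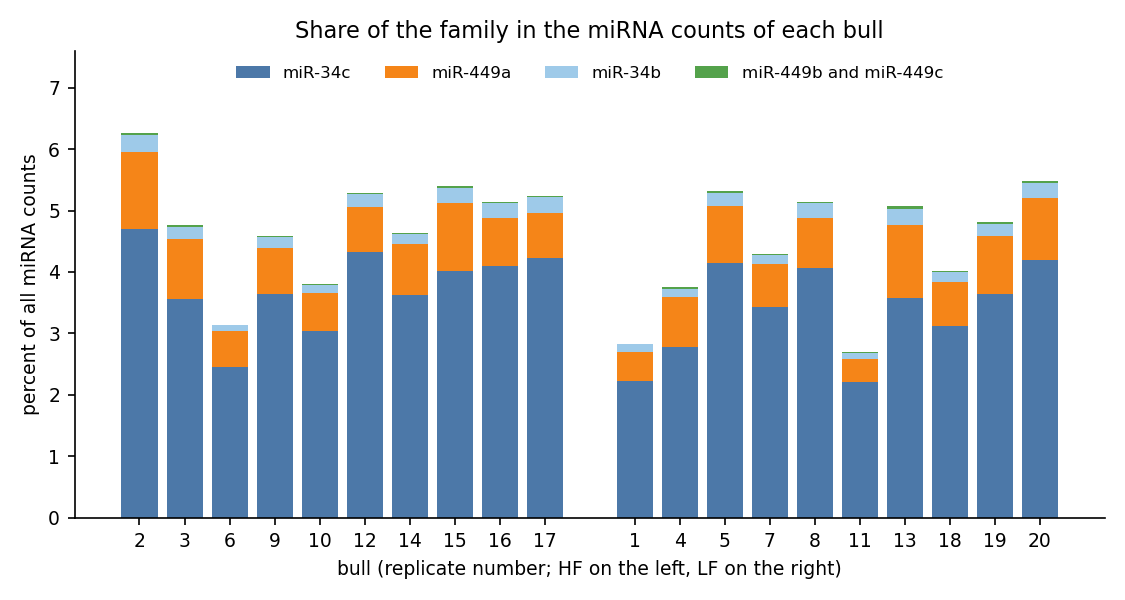
Percent of all miRNA counts taken by the family in each bull, stacked by member, with the 10 HF bulls on the left and the 10 LF bulls on the right. The bars run from 2.70% in LF bull 11 to 6.26% in HF bull 2, and miR-34c fills most of every bar.

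Whether the family differed between HF and LF was tested with limma on log2(normalized count + 1) over all 435 miRNAs, with Benjamini-Hochberg adjustment. Of the 5 members tested, 0 passed the thresholds of the study (unadjusted p under 0.05 and a fold change over 1.5). Over all miRNAs, 9 of 435 passed, or 2.07%, and with so few members a count of 0 is near that background. An adjusted p under 0.05 was reached by 0 of 435 miRNAs with limma, where 15 (3.45%) had an unadjusted p under 0.05 and 0 of the members did, and likewise by 0 with edgeR and DESeq2, where 21 to 23 did. All 5 log2 fold changes of the members were positive, with HF over LF, against 218 of 435 miRNAs, or 50.1%, although that of miR-449b turned negative where any of 4 single bulls was left out. The levels of the members were correlated across bulls, so these signs are not 5 separate observations.

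The estimate for miR-34c was 0.25 (SE 0.15) on the log2 scale, with a 95% interval of -0.060 to 0.56. In 8 of 10 HF bulls it lay above the LF median (limma, unadjusted p = 0.11, adjusted p = 0.94). Count tests on the reads of 19 libraries, without HF bull 6, gave 0.34 with edgeR's quasi-likelihood test (unadjusted p = 0.029, adjusted p = 0.84) and 0.28 with DESeq2 (unadjusted p = 0.054). limma without the same bull gave 0.32 (unadjusted p = 0.041), so that the unadjusted value depended on HF bull 6, the HF bull with the lowest miR-34c. The fold change stayed under 1.5 in each of these. Where the 2 shallowest libraries were left out, the estimate was 0.18.

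The other members had wider intervals around smaller or less certain differences. miR-34b gave 0.20 (SE 0.20, limma adjusted p = 0.96) and miR-449a 0.16 (SE 0.19, limma adjusted p = 0.96), with 95% intervals of -0.22 to 0.62 and -0.22 to 0.55. Without the 2 shallowest libraries they were 0.078 and 0.075, and miR-449a was 0.047 without LF bull 11 alone. miR-449b gave 0.070 (SE 0.30, limma adjusted p = 0.98), with an interval of -0.56 to 0.70. Its sign turned where HF bull 2, HF bull 15, LF bull 1 or LF bull 11 was left out. The estimate for miR-449c was the largest at 0.45 (SE 0.30, limma unadjusted p = 0.14, adjusted p = 0.94), with an interval of -0.16 to 1.06 and 8 of 10 HF bulls above the LF median. It was 0.14 where HF bull 17 and LF bull 11, the shallowest libraries of their groups and the bulls with the highest and the lowest miR-449c, were left out. The intervals include no change for every member, and also fold changes near or over 1.5 for most of them. In bulk RNA of a sperm pool, fewer cells that carry a miRNA and less of it per cell cannot be told apart.

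**Figure D3:**
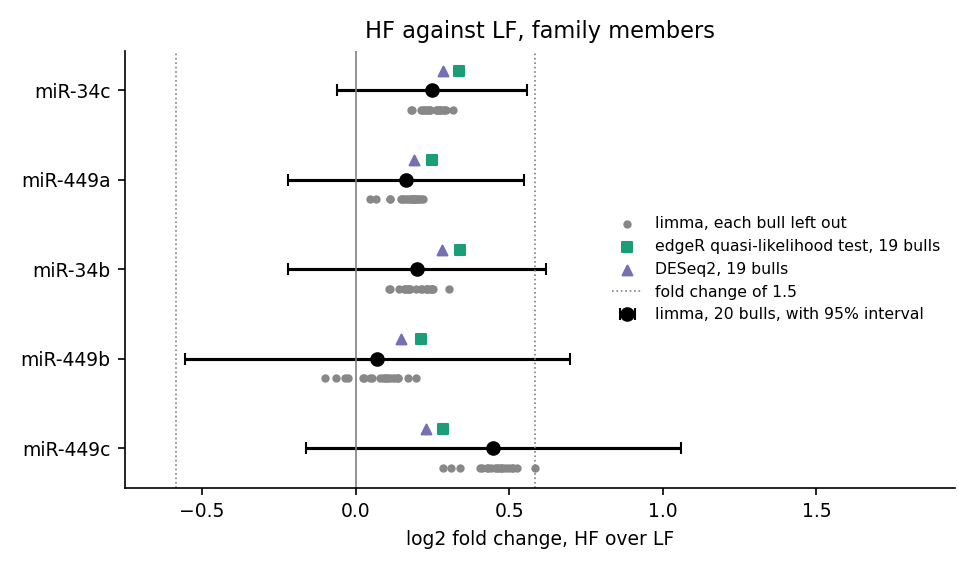
Log2 fold change, HF over LF, of the 5 members tested: black points with 95% intervals are limma on 20 bulls, grey points limma with each bull left out, squares and triangles edgeR and DESeq2 on 19 bulls, and dotted lines a fold change of 1.5. Every black interval crosses 0, and the grey points of miR-449b lie on both sides of it.

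Ratios between members within a library cancel its scaling, apart from the 1 added to each normalized count. They were used to ask whether the makeup of the family differed with fertility. Ratios with few reads of miR-449b or miR-449c carry more counting error in shallow libraries. The log2 ratio of miR-34c to miR-449a, the leading miRNAs of the 2 clusters, was 2.20 ± 0.26 in HF and 2.11 ± 0.29 in LF (SD, n = 10 each). The difference of 0.086 had a 95% interval of -0.17 to 0.34 (permutation test, two-sided, p = 0.49). That of miR-34c to miR-34b was 4.27 ± 0.21 in HF and 4.21 ± 0.22 in LF, a difference of 0.051 with an interval of -0.15 to 0.25 (permutation test, p = 0.61). The ratios of miR-449a to miR-449b, miR-449a to miR-449c and miR-449b to miR-449c differed by 0.094, -0.28 and -0.38, with wider intervals, the widest from -1.13 to 0.37 for the last. HF bull 17 decided much of these values, which were -0.0035, -0.12 and -0.11 without it, and 0.048, -0.070 and -0.12 without the 2 shallowest libraries. After adjustment over the 5 ratios all permutation p-values were 0.61.

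The proportions of members in single bulls are given for the lowest and highest of 20 bulls, as a description, with intervals that cover counting error only. miR-34b made up from 3.89% of the reads of miR-34b and miR-34c in HF bull 6 (Wilson 95% interval 3.61 to 4.2), the library whose reads are uncertain, to 6.80% in LF bull 13 (6.43 to 7.19), with a median of 5.22%. miR-449a made up from 14.3% of the reads of miR-449a and miR-34c in LF bull 11 (13.6 to 15.1) to 24.9% in LF bull 13 (24.3 to 25.5). miR-449b made up from 0.919% of the reads of miR-449a and miR-449b in HF bull 17 (7 of 762 reads, 0.446 to 1.88) to 2.60% in LF bull 13 (2.21 to 3.06), with a median of 1.78%. LF bull 13 was the highest of all bulls in each of these proportions.

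Levels of miR-34b and miR-34c, and of miR-449a and miR-449b, moved together from bull to bull. For miR-34b and miR-34c Pearson's r was 0.91 and Spearman's rho 0.89 on log2(normalized count + 1) over 20 bulls (permutation test, adjusted p = 5e-05 for each, from the smallest p that the resamples can give). Within HF r was 0.96 and within LF 0.87, and it was 0.85 without HF bull 2 and LF bull 11, the bulls farthest from the median of miR-34c. For miR-449a and miR-449b r was 0.94 and rho 0.98 (permutation test, adjusted p = 5e-05), with 0.92 within HF, 0.98 within LF and 0.92 without the same bulls. miR-449b changed more than miR-449a, with a slope of 1.55 log2 units for each log2 unit. The points of a pair share a library, and the normalization was the same for both.

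Members of different clusters were correlated as well, less closely. miR-34c and miR-449a gave r = 0.78 and rho = 0.65 (permutation test, adjusted p = 0.0002 and 0.0055), with 0.77 within HF, 0.79 within LF and 0.56 without HF bull 2 and LF bull 11. miR-34b and miR-449a gave r = 0.81 and rho = 0.71 (permutation test, adjusted p = 6.7e-05 and 0.0021), with 0.78 within HF and 0.84 within LF. miR-449b gave r = 0.68 with miR-34b and 0.62 with miR-34c (permutation test, adjusted p = 0.002 and 0.0058). The last of these fell to 0.34 without the same bulls, so much of it depended on them. Its rho over all bulls was 0.58 (permutation test, adjusted p = 0.014), and r was 0.59 within HF and 0.70 within LF. With the level of each miRNA taken relative to bta-miR-125b, r for miR-34c and miR-449a was 0.86. Both levels then share the variation of bta-miR-125b, which by itself can raise r, so this value adds no separate evidence.

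Correlations of miR-449c with its cluster mates were higher within LF than within HF bulls. Over all bulls r was 0.54 with miR-449a (permutation test, adjusted p = 0.023) and 0.35 with miR-449b (adjusted p = 0.13). Within LF the values were 0.89 and 0.85, and within HF -0.15 and -0.45. Without HF bull 17, whose miR-449c rested on 10 reads, the HF values were 0.090 and 0.080. A permutation test of the difference between HF and LF, chosen after these values were seen, gave p = 0.027 for miR-449a and p = 0.02 for miR-449b, and both adjusted p-values over the 10 pairs were 0.14, so the difference failed the correction. Without the 2 shallowest libraries the permutation p-values were 0.048 and 0.1, and the adjusted ones 0.48 and 0.5. Correlations of miR-449c with miR-34c and miR-34b were 0.49 and 0.48 over all bulls (permutation test, adjusted p = 0.033 for both), and fell to 0.28 and 0.25 without the 2 shallowest libraries.

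**Figure D4:**
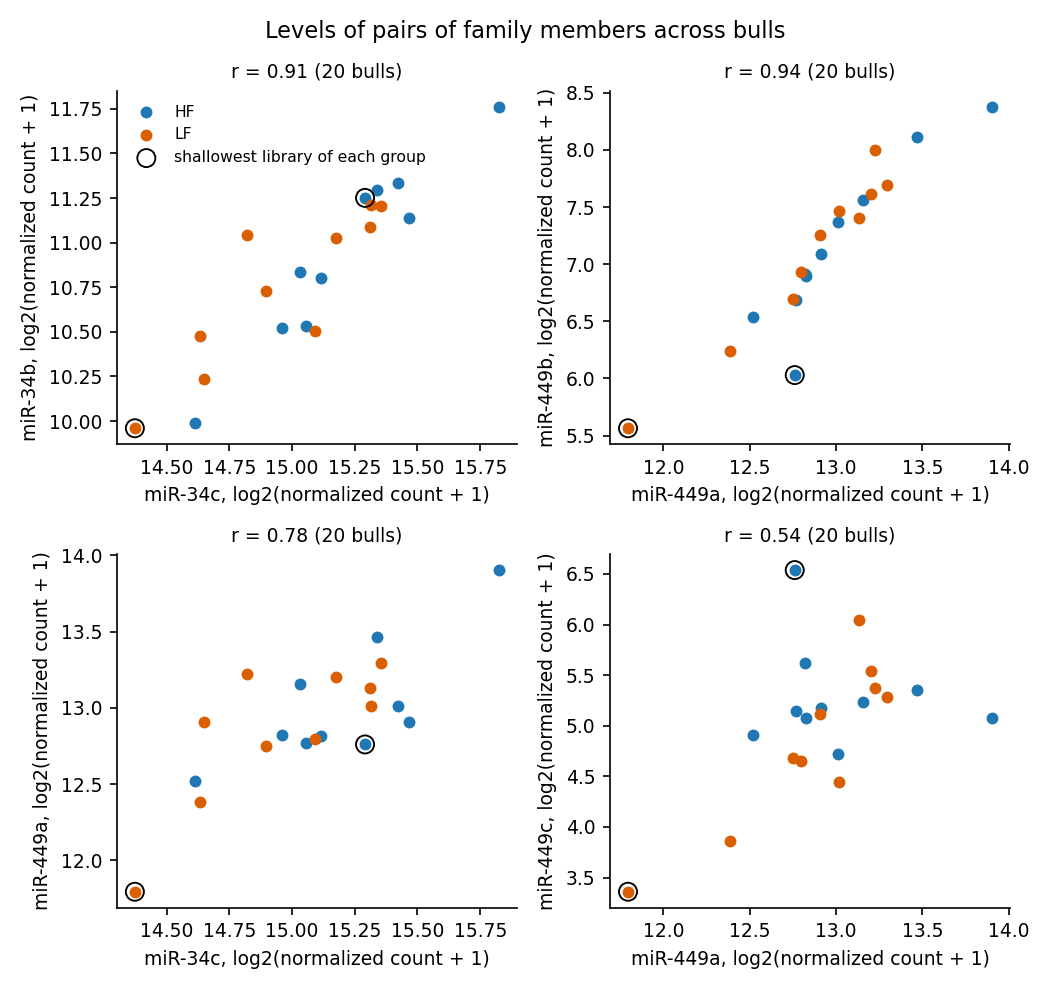
Levels of 4 pairs of members, each axis log2(normalized count + 1), 1 point per bull, HF in blue and LF in orange, with the shallowest library of each group circled. miR-34c with miR-34b (r = 0.91) and miR-449a with miR-449b (r = 0.94) lie close to a line, while miR-449a with miR-449c (r = 0.54) does not.

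Against the other 434 miRNAs tested, the closest by Spearman's rho to each of the 4 leading members was a cluster mate. miR-34b ranked 1 for miR-34c and the reverse, and miR-449a ranked 1 for miR-449b and the reverse. miR-449c, the third of its cluster, ranked 66 for miR-449a (rho 0.46) and 104 for miR-449b (rho 0.34). Over all 94395 pairs of miRNAs the median rho was 0.0090, and 95% of pairs lay below 0.49. There were 64 pairs at or above the rho of miR-34b and miR-34c, and 13 at or above that of miR-449a and miR-449b, these pairs included. Across clusters the ranks were lower, with miR-449a at 14 for miR-34c and miR-34c at 28 for miR-449a. By Pearson's r these ranks were 2 and 4, and miR-34c ranked 2 for miR-34b, behind bta-miR-211 at 0.92.

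The next most alike to miR-34b were bta-miR-211 (rho 0.86) and bta-miR-342 (0.85), and to miR-34c bta-miR-1271 (0.79) and bta-let-7g (0.73). Those of miR-449a were bta-miR-204 (0.78) and bta-miR-1343-3p (0.77), of which the last had a median of 1 read per library. Those of miR-449b were bta-miR-135a (0.80) and bta-miR-30c (0.77). For miR-449c no family member was among the 3 closest, which were bta-miR-105b (0.61), bta-miR-451 (0.58) and bta-miR-2285y (0.58), and miR-449a ranked 17. These ranks are descriptions over 20 bulls that share libraries and normalization.

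**Figure D5:**
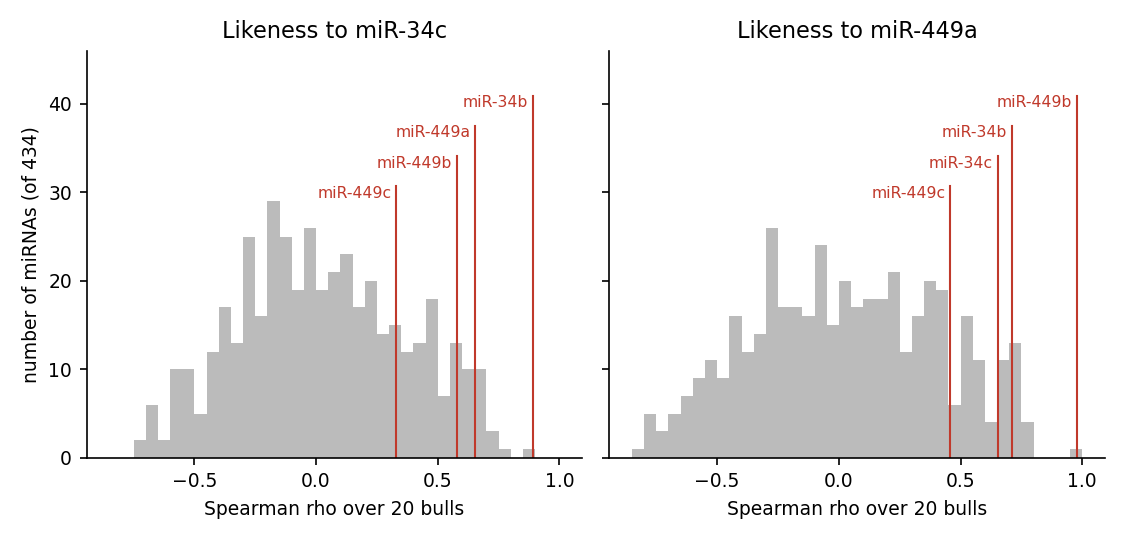
Number of miRNAs (of 434) by Spearman's rho over 20 bulls with miR-34c (left) and miR-449a (right), with red lines at the other family members. A cluster mate stands at the right end in both panels, at 0.89 for miR-34b and 0.98 for miR-449b. miR-449c, the other cluster mate of miR-449a, stands at 0.46.

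Other miRNAs with roles described in male germ cells, among them members of the miR-17 cluster, miR-146a, miR-202 and miR-204, were counted beside the family. All 20 of the list were tested, and 5 had a higher and 15 a lower mean log2 value in HF. Past the thresholds were 0 in either direction, and 0 had an adjusted p under 0.05 (limma). The median log2 fold change of the list was -0.10, against 0.0051 over all 435 miRNAs. The median of the 5 family members was 0.20. The summed normalized count of the germ cell list ranged from 97555 to 136633 in HF and from 97557 to 135123 in LF. Its largest members were bta-miR-21-5p, bta-miR-191 and bta-miR-375, with mean normalized counts of 54410, 31248.7 and 10607.5. The sum therefore says little of the rarer members. The list holds members of the same cluster, so its signs need not be 20 separate observations. The difference in direction between the family and this list was not tested.

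miRNAs known as markers of other cells that a semen sample can hold were counted in the same libraries. The paper found no RT-PCR product of PTPRC, CDH1 or KIT, its markers of leukocytes, epithelial cells and germ cells, in the sperm RNA. Whether the miRNAs of these lists came from such cells or from the spermatozoa was not tested. All 6 epithelial miRNAs, the miR-200 family with miR-141 and miR-429, and miR-205, had lower values in HF (median log2 fold change -0.40). Over all 435 miRNAs 50.1% had higher values in HF. Most of the list is of 1 family, and correlation between its miRNAs was not tested. Their signs need not be 6 separate observations. For bta-miR-429 and bta-miR-200a the unadjusted p was 0.014 and 0.040 (limma, adjusted p = 0.94 for both). Of all miRNAs 3.45% had an unadjusted p under 0.05. The fold changes stayed under 1.5, so 0 passed the thresholds. The sum of the list, with bta-miR-200a and bta-miR-200b as its largest members, ranged from 6544 to 13137 in HF and from 9680 to 15554 in LF. miR-34 and miR-449 are also known from ciliated epithelium, and miR-34c and this sum had r = -0.18 over 20 bulls (permutation test, adjusted p = 0.61). Within HF r was -0.60 and within LF 0.71, with opposite signs. The difference between these values and the part of the epithelial miRNAs in the results were not tested. Of 5 leukocyte miRNAs, 2 were higher and 3 lower in HF. Only bta-miR-155 passed the thresholds, as lower in HF (limma, unadjusted p = 0.0033, adjusted p = 0.92). Its mean normalized count was 10.5, with as few as 2 reads in a library. Over all miRNAs 9 of 435, or 2.07%, passed, of which 5 were lower in HF. The leukocyte sum was small, 56.7 to 211 in HF and 51.2 to 289 in LF. Its most abundant marker was bta-miR-142-5p, at a mean normalized count of 92.6. Single markers differed in their rho with miR-34c. It was 0.60 for bta-miR-142-5p, 0.66 for bta-miR-150 and 0.41 for bta-miR-142-3p, but -0.16 for bta-miR-155 and -0.42 for bta-miR-223. The sum, though not every marker in it, moved with miR-34c and miR-449a. With miR-34c r was 0.58 and rho 0.71 (permutation test, adjusted p = 0.1 and 0.011 over 15 relations), with 0.67 within HF and 0.63 within LF, and with miR-449a r was 0.52 and rho 0.65 (adjusted p = 0.1 and 0.018). Its part in the results was not tested. Of the erythroid list 2 of 3 were tested, with 2 higher and 0 lower in HF by mean log2 value. Of the stromal, muscle and endothelial list 7 of 9 were tested, with 6 higher and 1 lower. In both lists 0 passed the thresholds. The sums of these lists ranged from 20.0 to 100.4 and from 193 to 2409 over all bulls. Of the 6 higher, bta-miR-126-5p and bta-miR-1 also had the higher mean normalized count in HF. For bta-miR-126-3p, bta-miR-143, bta-miR-133a and bta-miR-199a-5p the mean normalized count was higher in LF. No marker of these lists was at 0 in every bull.

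Depth also moved with some members. The log2 number of reads of a library and miR-34c gave r = 0.44 and rho = 0.58 (permutation test, adjusted p = 0.16 and 0.043), and r = 0.64 without HF bull 17 and LF bull 11. For miR-449b r was 0.51 (permutation test, adjusted p = 0.1) and 0.14 without these bulls. For miR-449c r was -0.17 over all bulls, -0.83 within HF and 0.48 within LF, and -0.096 without HF bull 17 and LF bull 11. The part of depth in the levels was not tested, and no batch was named in the labels.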

How the data were processed

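Small RNA libraries of spermatozoa from 10 HF and 10 LF bulls were used, grouped by the labels. The authors trimmed adapters with cutadapt, kept reads in a length window, removed other short RNAs, aligned to ARS-UCD1.2 with Bowtie and counted on miRBase miRNAs with miRDeep2. The deposited values are a signal per miRNA, namely counts divided by library size and a TMM factor.

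Each value was divided by that of 1 read in its library. Of the values above 0, 95.0% came out whole (tolerance 0.01); 44 miRNAs had others. HF bull 6 held values below 1 read, so count tests used 19 libraries. miRNAs under 1 in at least 10 of 20 bulls were removed. The main test was limma 3.58.1 (R 4.3.3) with a variance trend on log2(normalized count + 1). edgeR 4.0.16 and DESeq2 1.42.0 were alternatives on recovered reads. Permutation tests used 100000 resamples (scipy 1.17.1), and 20000 for differences between correlations. The scripts were tested on simulated data.

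The text names every family member, the 3 miRNAs most alike by Spearman's rho to each member with a median of at least 10 reads, and bta-miR-125b. bta-miR-155 and other single miRNAs of the germ cell and marker lists were named after their values were seen. The members, the germ cell list and the marker lists were chosen with earlier results of these data known. A search for the seed in other miRNAs was not run. p-values measure the spread between bulls.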

Additional observations from a re-analysis of the deposited data

Results flagged for a closer look

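Dixon's test asked, separately in HF and LF, whether an extreme bull stood apart from its nearest neighbour. It passed the 95% limit in 3 of 22 groups, where chance gives about 1.1. All 3 values came from HF bull 17, the shallowest library, with 103204 reads. Its normalized count of miR-449c was 91.9 on 10 reads, with the next HF bull at 48.3, a gap of 0.655 of the range. Its log2 ratio of miR-449a to miR-449b was 6.73, with the next at 6.08, and that of miR-449b to miR-449c was -0.51, with the next at 1.29. These values rest on 7 reads of miR-449b and 10 of miR-449c, so they share those counts and are not separate observations.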

How the results depend on the processing

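The direction of the fold change and its side of the thresholds were kept in all 48 values under other tests, scalings, pseudocounts and filters and without the 2 shallowest libraries, as were all 15 of the order, 10 of the ratios and 2 of the family share. When single bulls were left out, the log2 fold change ranged from 0.18 to 0.32 for miR-34c, 0.11 to 0.31 for miR-34b, 0.047 to 0.22 for miR-449a, -0.099 to 0.20 for miR-449b and 0.28 to 0.58 for miR-449c. For miR-449b it was -0.065 without HF bull 2, -0.036 without HF bull 15, -0.023 without LF bull 1 and -0.099 without LF bull 11. The family share ranged from 4.49% to 4.68%. The differences in log2 ratio ranged from 0.028 to 0.14 for miR-34c to miR-449a, 0.0017 to 0.092 for miR-34c to miR-34b, -0.0035 (without HF bull 17) to 0.15 for miR-449a to miR-449b, -0.41 to -0.12 for miR-449a to miR-449c, and -0.54 to -0.11 for miR-449b to miR-449c.

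The number of miRNAs past the thresholds, 9 with limma, was 16 with edgeR's quasi-likelihood test, 17 with its likelihood ratio test, 16 with DESeq2, 4 with a pseudocount of 5 and 15 of 731 with no filter. It was 0 of 158 with at least 10 reads in every bull, a filter that removed miR-449b and miR-449c, where 5 had an unadjusted p under 0.05 with limma. It ranged from 7 to 15 with each bull left out, the highest being 15 without HF bull 6 and 14 without LF bull 1, LF bull 11 or LF bull 13. A member was called in none of these. The cause was not tested.

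Of 70 alternative correlations 53 kept sign and side of the threshold. In HF bulls alone r was -0.15 for miR-449a and miR-449c, -0.45 for miR-449b and miR-449c, 0.070 for miR-34c and miR-449c, 0.20 for miR-34b and miR-449c, and 0.59 for miR-449b with either of miR-34c and miR-34b. These tests have 10 bulls. In LF bulls alone miR-449b and miR-449c gave 0.85, past the threshold. Without the 2 shallowest libraries, chosen after seeing the data, miR-449c gave 0.28 with miR-34c, 0.47 with miR-449a and 0.25 with miR-34b. In HF without its shallowest library these were -0.0084, 0.090 and 0.027. Without the 2 bulls farthest from the median they were 0.38, 0.40 and 0.31, and miR-34c with miR-449b gave 0.34.

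No paired analysis was possible because HF and LF bulls share no replicate numbers. Depth limits miR-34a, miR-449d and, in the shallowest libraries, miR-449b and miR-449c.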
